A study of Homo sapiens with 3 samples.

Results

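The nuclear genes of the mitochondrial respiratory chain were described here by the anti-IRF3 peaks at their ends. They were the protein-coding RefSeq genes on chromosomes 1 to 22 and X whose symbols begin NDUFA, NDUFB, NDUFC, NDUFS, NDUFV, SDHA to SDHD, UQCR, COX4 to COX8 or ATP5, without the NDUFAF and SDHAF assembly genes. This gave 88 of 19974 genes: 38 of complex I, 4 of complex II, 9 of complex III, 17 of complex IV and 20 of complex V. The choice used symbols and not measured values. The annotation lists the former NDUFA4 and NDUFA4L2 as COXFA4 and COXFA4L2, so both lay outside the set, and the readthrough genes NDUFC2-KCTD14 and ATP5MF-PTCD1 lay inside it.

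The data are ChIP-seq peaks of IRF3, a transcription factor of the antiviral response, in the triple-negative breast cancer line BT549; ChIP-seq sequences the DNA pulled down with an antibody. All cells carried Cas9 and a guide RNA from a stably integrated lentiviral vector (lentiCRISPR v2) and received polyI:C, an artificial RNA duplex that mimics viral RNA, by transfection; the labels list no further stimulation. The guide was a control gRNA, Smad3 gRNA #1 or Smad3 gRNA #2, called control, guide 1 and guide 2 below, and the design asks how IRF3 peaks differ with Smad3 targeted. There was 1 library per group, so nothing between groups was tested or had a replicate check. The titles call the cells BT549-caSmad3 under both Smad3 guides but BT549 under the control guide, whereas the descriptions name BT549 for every library. If the titles hold, an effect of the guide and one of the parent line cannot be told apart. The labels do not say whether the cells were clones. The control, guide 1 and guide 2 lists held 18028, 16811 and 19609 peaks, with no read counts, so sequencing depth is unknown. A library without polyI:C or without the antibody was not analysed here, so no background level was measured at these genes.

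The respiratory chain of the inner mitochondrial membrane passes electrons from NADH (complex I) and succinate (complex II) through complex III and cytochrome c to complex IV, which reduces oxygen. Complexes I, III and IV pump protons, and complex V, the ATP synthase, uses the gradient to make ATP. Most subunits are encoded by nuclear genes scattered over the chromosomes, and their promoters are classic targets of the nuclear respiratory factor NRF1, of ETS factors such as GABP, and of YY1 and SP1.

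Most widely expressed respiratory chain genes had a peak at their start in all libraries, and the tissue-restricted copies had none. A gene was called marked when a peak reached to within 1 kb of one of its ends. By this rule 73 of 88 were marked in control, or 83.0% (Wilson 95% interval 73.8 to 89.4, counting error only), where 46.7% of all protein-coding genes were. In guide 1, 71 were marked, or 80.7% (71.2 to 87.6), against 43.5% of all genes. In guide 2, 75 were marked, or 85.2% (76.3 to 91.2), against 45.9% of all genes. The members marked in all lists numbered 70, or 79.5% (70.0 to 86.7), against 42.5% of all genes, those marked in none numbered 13, or 14.8% (8.84 to 23.7), against 52.0%, and those marked in some lists but not all numbered 5, or 5.68%, against 5.52%. The members are short genes, with a median span of 9589 bp where all protein-coding genes have 24170 bp, but no strongest control peak lay within 1 kb of both ends of its gene.

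**Figure D1:**
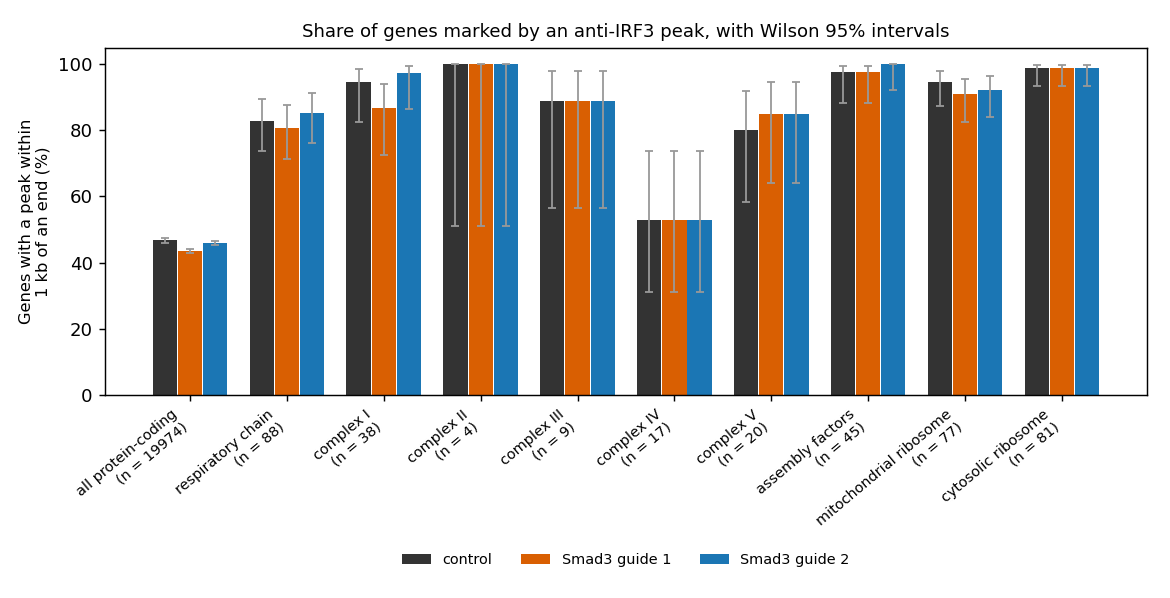
Percentage of genes with a peak within 1 kb of a gene end (vertical axis) for all protein-coding genes, the respiratory chain genes, each complex and other gene lists (horizontal axis), in the control, guide 1 and guide 2 lists. Error bars are Wilson 95% intervals; the respiratory chain bars stand at 80.7% to 85.2% and the complex IV bars at 52.9%.

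The promoters below show what lay under these peaks: the stretch just before the start of 7 marked genes and of COX6A2, an unmarked muscle form of a complex IV subunit. The sequences are those of RefSeq, build GRCh38.p14, read 5′ to 3′ on the strand of the gene and ended where a neighbouring gene begins or at 250 bases. Capitals mark the 10-base NRF1 palindrome (the first run in SDHD), CCGGAAG (ETS and GABP) and GGGCGG (SP1), each searched as exact letters on both strands, so that CTTCCGG and CCGCCC are matches too. SDHD, ATP5F1C and NDUFB4 were shown for their NRF1 letters, UQCRH, NDUFA1 and COX5B for ETS letters, and NDUFB6 because its control peak ranked second among the members.
SDHD (chr11:112086757-112086872, plus strand): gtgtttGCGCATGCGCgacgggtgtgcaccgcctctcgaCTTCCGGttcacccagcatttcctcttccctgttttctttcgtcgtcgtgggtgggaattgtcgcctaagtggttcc
ATP5F1C (chr10:7787994-7788176, plus strand): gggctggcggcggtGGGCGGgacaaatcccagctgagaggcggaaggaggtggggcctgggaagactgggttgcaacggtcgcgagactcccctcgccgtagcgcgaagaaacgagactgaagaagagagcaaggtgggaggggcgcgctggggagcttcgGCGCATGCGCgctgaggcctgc
NDUFB4 (chr3:120596086-120596335, plus strand): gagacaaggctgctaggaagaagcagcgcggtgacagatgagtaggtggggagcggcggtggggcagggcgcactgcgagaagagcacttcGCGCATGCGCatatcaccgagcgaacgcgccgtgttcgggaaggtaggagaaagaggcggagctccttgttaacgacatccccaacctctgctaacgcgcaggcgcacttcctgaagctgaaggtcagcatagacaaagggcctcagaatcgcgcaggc
UQCRH (chr1:46303617-46303697, plus strand): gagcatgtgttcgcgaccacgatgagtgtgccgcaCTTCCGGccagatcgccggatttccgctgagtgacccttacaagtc
NDUFA1 (chrX:119871734-119871831, plus strand): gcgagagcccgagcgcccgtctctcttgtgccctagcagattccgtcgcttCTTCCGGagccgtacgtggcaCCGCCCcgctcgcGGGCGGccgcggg
COX5B (chr2:97645812-97646061, plus strand): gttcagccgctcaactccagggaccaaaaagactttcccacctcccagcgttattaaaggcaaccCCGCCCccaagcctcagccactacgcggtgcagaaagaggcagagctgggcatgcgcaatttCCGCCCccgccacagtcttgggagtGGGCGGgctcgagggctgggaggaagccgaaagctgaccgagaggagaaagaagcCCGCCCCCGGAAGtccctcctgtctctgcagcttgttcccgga
NDUFB6 (chr9:32573160-32573409, minus strand): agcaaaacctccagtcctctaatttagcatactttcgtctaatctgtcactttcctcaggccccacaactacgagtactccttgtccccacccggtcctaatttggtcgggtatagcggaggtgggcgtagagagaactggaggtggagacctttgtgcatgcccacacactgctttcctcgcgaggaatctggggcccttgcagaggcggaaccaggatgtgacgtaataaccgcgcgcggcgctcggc
COX6A2 (chr16:31428361-31428610, minus strand): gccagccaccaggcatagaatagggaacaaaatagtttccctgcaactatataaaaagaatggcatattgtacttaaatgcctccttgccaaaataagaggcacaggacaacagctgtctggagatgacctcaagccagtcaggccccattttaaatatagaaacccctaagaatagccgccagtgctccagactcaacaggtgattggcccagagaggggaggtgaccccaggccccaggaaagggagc

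In COX5B an SP1 match ran straight into an ETS match. The SDHD stretch of 116 bases filled the gap to TIMM8B, the ATP5F1C stretch of 183 bases the gap to KIN, the UQCRH stretch of 81 bases the gap to LRRC41, and the NDUFA1 stretch of 98 bases the gap to RNF113A. NDUFB6 and COX6A2 held none of the searched letters before their starts.

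RefSeq promoter windows, from 250 bases before to 50 after a start, were matched for 71 of the 88 genes. NRF1 letters were in 4 of 71 members, or 5.63% (2.21 to 13.6), where 1.99% of 15813 protein-coding genes and 3.44% of those marked in control had them; the fourth member was NDUFA8, of complex I. ETS letters were in 21, or 29.6% (20.2 to 41), where all genes had 16.5% and all genes marked in control 26.4%. YY1 letters (AAGATGGCG) were in 9, or 12.7% (6.81 to 22.4), where all genes had 3.21% and all marked genes 5.66%. In 8 of these 9 (NDUFA6, NDUFA7, NDUFA9, NDUFB8, NDUFS4, NDUFS7, SDHB and UQCRC1) the YY1 letters lay on the strand of the gene, between 10 and 33 bases after a first transcribed base. In ATP5PF they lay before it. SP1 letters were in 63.4% of the members (51.8 to 73.6), 64.3% of all genes and 77.2% of all genes marked in control. Cyclic AMP response element letters (TGACGTCA) were in 7.04% of the members (3.05 to 15.4), 3% of all genes and 4.16% of those marked. The interferon-stimulated response element, the kind of site that IRF factors are known to bind, searched as GAAA repeated after a gap of 2 bases, was in 0 of 71 members (interval up to 5.13%), 4.16% of all genes and 3.62% of genes marked in control. For the 62 of these members marked in control, the like group to all genes marked in control, NRF1 letters were in 6.45% and ETS letters in 32.3%. YY1 letters were in 14.5% of the 62, SP1 letters in 66.1%, TGACGTCA in 6.45% and the interferon-stimulated element in 0. Such matches describe the letters in these windows and do not show binding.

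Complex I, the NADH dehydrogenase, had marks at 36 of its 38 genes in the control list, 33 in that of guide 1 and 37 in that of guide 2. For this and each later complex, the shares of all protein-coding genes were 46.7%, 43.5% and 45.9% in the same order. Peak strength is given as a score percentile, the share of peaks in the same list with a lower authors' score; scores were not compared between lists. NDUFB9 and NDUFB6, accessory subunits of the membrane arm, carried the strongest peaks of all members. The NDUFB9 peak (chromosome 8, 124538830 to 124539407 in hg38) scored above 98.3% of control peaks, 98.4% of guide 1 peaks and 98.9% of guide 2 peaks. The NDUFB6 peak (chromosome 9, 32572898 to 32573474) stood at 98.1, 98.4 and 98.8 in the same order. NDUFA1, an accessory subunit encoded on chromosome X, stood at 96.3, 96.7 and 97.7, and NDUFS5, also accessory, at 96.3, 92.7 and 95.5. All 4 were near the top of every list. Next in control came NDUFB2 (94.3, 89.0 and 94.2), NDUFB5 (94.2, 89.5 and 88.1), NDUFA8 (92.2, 90.2 and 89.3), NDUFA7 (90.6, 88.2 and 90.6) and NDUFC2 (90.6, 91.3 and 90.2), all accessory.

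The other accessory subunits spread widely. NDUFA11, NDUFB4, NDUFA2, NDUFB8, NDUFV3, NDUFB10, NDUFA6 and NDUFB1 lay between 80.6 and 87.1 in control, between 62.5 and 83.9 in guide 1 and between 63.9 and 91.9 in guide 2, where NDUFB4 was the highest. NDUFB11 (77.6, 78.1 and 83.5), NDUFC1 (75.3, 70.2 and 69.2), NDUFA13 (73.3, 76.9 and 74.6), NDUFA12 (70.6, 52.5 and 63.9) and NDUFS6 (69.2, 70.2 and 69.8) were nearer the median of all marked genes. Of these, NDUFS6 differed least between lists.

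The core subunits of complex I, among them those that hold the flavin and iron-sulfur clusters, had peaks below the complex median in control. The core was set apart after its values were seen. NDUFV1, the flavin-binding subunit that takes electrons from NADH, stood at 61.7, 53.6 and 61.1 in the order above. NDUFV2 was at 75.3, 76.3 and 82.8, NDUFS1 at 57.8, 37.4 and 58.0, and NDUFS3 at 65.2, 68.2 and 61.8. With NDUFS8, given next, every core gene marked in control lay below the control median of the complex (79.1). In the guides NDUFV2 did not lie below the complex medians, which were 76.3 in guide 1 and 73.1 in guide 2. Some accessory genes were as low in control, among them NDUFB7 (48.4), NDUFA3 (52.2) and NDUFA10 (55.8). NDUFS7 had the second-lowest control peak of all members, at 33.1, with 21.3 in guide 1 and 34.7 in guide 2. The 8 NDUFS genes as a group had a median of 57.8 (33.1 to 96.3) over the 7 marked in control, and the 11 NDUFB genes one of 83.1 (48.4 to 98.1). These intervals overlap widely. The NDUFS and NDUFB medians were 68.2 and 82.2 in guide 1, and 59.9 and 83.5 in guide 2. The NDUFS symbols include accessory subunits (NDUFS4, NDUFS5 and NDUFS6). Over all genes marked in control the median was 70.6 (70.0 to 71.3).

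Complex I also held most of the genes whose marking differed between lists. NDUFS4 and NDUFS8 had a peak over or beside the start in control and guide 2 and none in guide 1, where the nearest peak to an end was 141116 and 2039 bp away. NDUFS4 stood at 52.2 in control and 51.3 in guide 2, and NDUFS8, a core iron-sulfur subunit, at 57.8 and 45.7. NDUFB3 was likewise marked in control (38.0) and guide 2 (14.9) and not in guide 1. Without a replicate, these absences cannot be set against the spread between cultures.

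Complex II, succinate dehydrogenase, was marked at all 4 genes in every list. SDHC and SDHD, the membrane anchors, stood at 94.7, 90.5 and 93.6 and at 83.6, 74.6 and 84.7 in control, guide 1 and guide 2. SDHA, the flavoprotein, was at 74.1, 68.2 and 75.2, and SDHB, the iron-sulfur subunit, at 75.3, 50.2 and 58.0. SDHC was highest in each list.

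Complex III, the cytochrome bc1 complex, was marked at 8 of 9 genes in every list, UQCRHL being the exception, with medians of 82.6, 76.2 and 81.7. The small subunit UQCRB led with 96.3 in control, 96.1 in guide 1 and 96.5 in guide 2, followed by UQCRQ (92.2, 91.8 and 92.9). The core subunit UQCRC1 stood at 88.3, 88.2 and 91.0 and the hinge subunit UQCRH at 85.0, 79.5 and 90.8. The core subunit UQCRC2 held nearly the same percentile in every list (73.3, 72.9 and 72.6), and the small subunits UQCR11 (80.2, 72.3 and 66.7) and UQCR10 (73.3, 65.0 and 60.4) did not. UQCRFS1, the Rieske iron-sulfur subunit, had the weakest peak of the complex in each list, at 61.7, 57.6 and 46.7. CYC1 (70.6, 62.5 and 55.7), the cytochrome c1 subunit whose symbol lies outside the set, and CYCS (91.0, 96.5 and 95.2), which encodes cytochrome c itself, were also marked in every list.

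Complex IV, cytochrome c oxidase, was marked at 9 of 17 genes in every list, and the same 9 genes each time, with medians of 73.3, 65.9 and 70.4. That was 52.9% (31.0 to 73.8), an interval that holds the 46.7%, 43.5% and 45.9% of all protein-coding genes. COX6C had the strongest peak at a gene end, at 89.5 in control, 89.5 in guide 1 and 91.2 in guide 2. COX6B1 was at 85.8, 74.2 and 70.4, COX8A at 83.1, 62.5 and 71.0, and COX7C at 81.6, 64.0 and 69.2. COX4I1 and COX5A, which encode subunits IV and Va, stood at 61.7, 70.2 and 68.6 and at 73.3, 44.0 and 65.9. COX5B (66.8, 68.9 and 61.1), whose promoter is printed above, and COX6A1 (62.6, 65.0 and 76.2), the widely expressed form of VIa, stood at middle ranks. Among these peaks at gene ends, only that of COX6C in guide 2 was at or above percentile 90.

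The 8 unmarked genes of complex IV were mostly the copies used in particular tissues. None of COX6A2 and COX7A1 (heart and skeletal muscle), COX6B2, COX7B2 and COX8C (testis) and COX4I2 (lung) was marked in any list. Together with UQCRHL, an intronless relative of UQCRH, and ATP5MGL, a relative of ATP5MG, these made 8 tissue-restricted or duplicated members with 0 marked in any list (interval for 0 of 8 up to 32.4%). Of all protein-coding genes, 52.0% were also marked in no list. The nearest control peaks to their ends lay between 7932 bp (UQCRHL) and 554199 bp (COX7B2) away. By contrast COX6A1, COX6B1, COX7B, COX8A and COX4I1, widely expressed counterparts, were all marked. COX7A2, the widely expressed counterpart of COX7A1, was not, and was among the other unmarked members, given next.

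The other 5 members without a peak at an end were NDUFA5, COX7A2, COX7A2L, ATP5MC2 and ATP5F1D. For the first 4 the RefSeq span reaches 5340 to 43833 bp beyond a start listed inside it, and a peak lay over that inner start in every list. The inner start of COX7A2, the widely expressed form of VIIa, lay under peaks at 94.3, 87.3 and 93.0. ATP5MC2 had a peak at 81.6, 53.6 and 63.2, NDUFA5 one at 39.6, 18.2 and 32.6, and COX7A2L one at 4, 4.63 and 25.1. COX7A2L encodes a factor that joins complexes III and IV. Counting peaks within 1 kb of either end or of any listed start, a rule added after these values were seen, marked 77 members in control, 75 with guide 1 and 79 with guide 2, against 49.1%, 45.8% and 48.3% of all genes. Outside the tissue-restricted or duplicated list this was 77 of 80 in control, or 96.2% (89.5 to 98.7), 75 in guide 1 and 79 in guide 2, and for complex IV 11 of 11 in every list. ATP5F1D, the delta subunit of the ATP synthase, was the 1 member of these 80 not marked in any list. It has no start in the promoter table, so the added rule could test only its ends. Its nearest control peak lay 3721 bp from an end.

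Complex V, the ATP synthase, was marked at 16 of 20 genes in control and 17 in each guide, with medians of 85.7, 78.1 and 83.8. ATP5F1E, the epsilon subunit of the rotor, led in control at 96.6, with 96.3 in guide 1 and 96.2 in guide 2. ATP5MK, a small membrane subunit, stood at 94.7, 96.8 and 97.5, and its peak (chromosome 10, 103396214 to 103396919) lay closer to PDCD11. ATP5IF1, which encodes the inhibitor that blocks ATP hydrolysis by the enzyme, was at 93.2, 93.7 and 95, and ATP5PO, of the peripheral stalk, at 91.0, 71.5 and 81.1. The catalytic head subunits ATP5F1A and ATP5F1B were at 89.1, 84.5 and 86.7 and at 86.5, 88.7 and 92.4, and ATP5F1C, the central shaft, at 89.3, 91.5 and 92.4. The small membrane subunits ATP5MJ (86.5, 72.3 and 75.8) and ATP5MG (85.0, 74.6 and 75.8) and the stalk subunits ATP5PD (79.2, 75.1 and 66.7) and ATP5PB (78.1, 78.1 and 83.8) followed.

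The genes ATP5MC1, ATP5MC2 and ATP5MC3 encode the same mature rotor ring protein. ATP5MC1 stood at 58.8, 57.6 and 56.4 and ATP5MC3 at 58.8, 41.4 and 45.7, both below the control median of the complex (85.7). ATP5MC1 had 2 peaks in each list. The one over the start was the stronger in control (58.8 and 45.8), and the one before it was the stronger in guide 1 (57.6 and 36.0) and guide 2 (56.4 and 38.2). ATP5ME, a small membrane subunit, was marked in both guides by weak peaks (6.67 in guide 1 and 11.1 in guide 2) that lay closer to MYL5, and in control the nearest peak to an end was 31512 bp away.

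The peaks sat at gene starts. With the start alone in place of either end, 62 of the 71 members with a listed start were marked in control, 60 in guide 1 and 63 in guide 2, where this was 48.0%, 44.8% and 47.2% of all genes with one. A start was listed for 62 of the members marked in control, and the strongest peak lay nearer the start than the other end in all 62. The same held for 60 of 60 in guide 1 and 63 of 63 in guide 2. Of all protein-coding genes with a listed start, 7789 were marked at either end in control and 7592 at the start. Marking at the start was thus not particular to the members. Only 2 of 71 members with a listed start had a peak within 1 kb of the other end in any list, a share not counted over all genes. They were NDUFB6, whose other-end peak was also strong (96.8, 97.7 and 98.3 in control, guide 1 and guide 2), and NDUFA7 (65.2, 76.3 and 71.0). The peak covered a start in 58 of 62 in control, the exceptions being NDUFS8, UQCR11, ATP5F1A and ATP5MG. Its midpoint was within 100 bp of the span start in 45. ATP5F1A also had a peak over a start listed 5931 bp inside its span, at 85.4, 80.4 and 88.6. The median midpoint lay 51 bp before the start (quartiles -94 and 39) in control, and at -26 and -51 bp in guide 1 and guide 2.

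The edge of the peak inside the gene varied less in position than the outer edge, at the members and at all protein-coding genes. Among the 56 strongest control peaks that covered the start of the span, the inner edge was a median of 242 bp into the gene with quartiles of 224 and 260, and the outer edge a median of 334 bp before it with quartiles of 173 and 421. At all protein-coding genes, such control peaks had an inner edge at a median of 250 bp (quartiles 222 and 291). Their outer edge lay at a median of 304 bp (quartiles 159 and 405). The inner edge fell between 200 and 300 bp in 49 of the 56, or 87.5%, where 60.9% of 5506 such peaks at all protein-coding genes did. In guide 1 this was 80.4% against 59.6%, and in guide 2 82.8% against 59.4%. These limits were chosen after the positions were seen. For NDUFC1, ATP5PF and NDUFB11 the midpoint lay 1187, 766 and 511 bp into the span, and all have a start listed inside the span, up to 1341, 749 and 789 bp in. In control the outer edge lay a median of 373 bp out for the 20 members with another gene head to head and 303 bp for the other 36. A neighbour was counted only if the member's strongest peak came within 1 kb of its end. The grouping thus depends on the reach of the peak, and the medians cannot be compared freely.

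**Figure D2:**
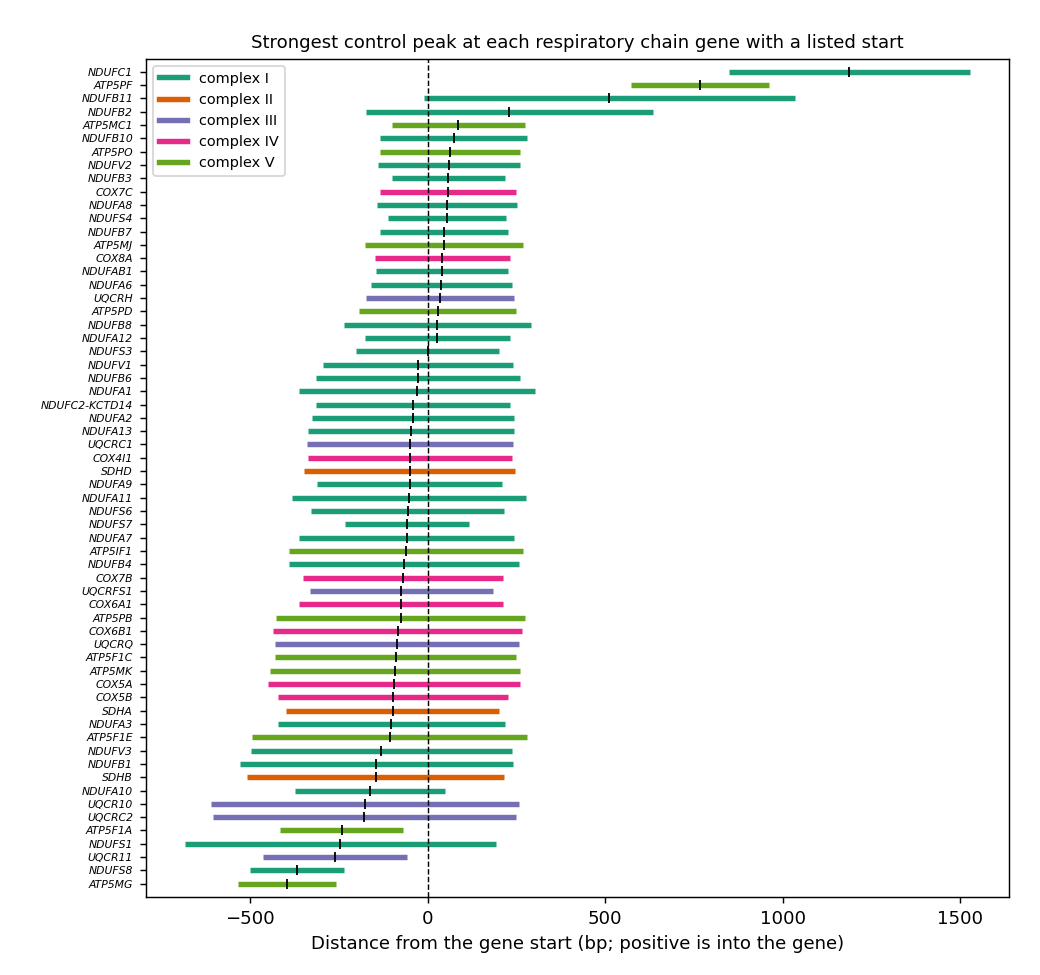
Extent of the strongest control peak (bars, coloured by complex; ticks are midpoints) at the 62 marked genes with a listed start, as distance in bp from the start of the gene span (horizontal axis, positive into the gene). Most right-hand edges line up near 242 bp, and NDUFC1, ATP5PF and NDUFB11 have midpoints farthest into the gene.

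Many of the peaks were shared with a neighbouring gene. In control 34 of 73 marked members, or 46.6%, had another protein-coding gene with an end within 1 kb of their strongest peak, where this was 34.4% of the 9318 genes marked in control. The midpoint lay closer to the other gene for 10 members, or 13.7%, where this was 16.2% of all marked genes: NDUFA9 (AKAP3), NDUFB1 (CPSF2), NDUFB11 (RBM10), NDUFB5 (MRPL47), NDUFC1 (NAA15), NDUFS1 (EEF1B2), SDHA (CCDC127), ATP5F1A (HAUS1), ATP5MK (PDCD11) and ATP5PF (GABPA). A single peak cannot be assigned to one gene of such a pair. Over the members marked in any list, counting each readthrough pair from both sides, there were 38 pairs. Both starts were listed for 28 of them, of which 24 had starts on opposite strands within 2 kb, a median of 175 bp apart. Orientation was not counted over all genes, and the pairs were chosen by an end near the member's peak.

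The partners included genes of related function. GABPA, which encodes the DNA-binding subunit of GABP, shared with ATP5PF, of the peripheral stalk, a peak at 50.8, 36.0 and 58.8, its control midpoint 85 bp from an end of GABPA. NDUFS6 and NDUFB5 lay beside the mitochondrial ribosomal protein genes MRPL36 and MRPL47, NDUFA7 beside the cytosolic one RPS28, NDUFS1 beside the elongation factor gene EEF1B2, and SDHD beside the mitochondrial import gene TIMM8B. These pairs were picked for their function after the neighbours were seen. Only the readthrough genes shared a peak with another member, NDUFC2-KCTD14 with NDUFC2 (percentile 90.6, 91.3 and 90.2) and ATP5MF-PTCD1 with ATP5MF (85.0, 83.0 and 87.2), so the 73 members marked in control stood for 71 peaks.

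At most members the lists had peaks at the same sites. Of 75 members marked in any list, 70, or 93.3%, were marked in all, where this was 88.5% of the 9587 genes marked in any list. The strongest peaks of control and guide 1 overlapped by at least 1 bp for 69 of 70 members, those of control and guide 2 for 71 of 73, and those of the guides for 71 of 71. ATP5MC1 and NDUFS8 were the exceptions. Overlap of strongest peaks was not counted over all genes. Among the 70 members, the percentile was higher in guide 1 than in control for 19 and higher in guide 2 than in control for 29, with median differences of -4.10 and -0.65. For all 8484 genes marked in all lists the shares were 33.3% and 49.1% and the medians -2.91 and -0.06. Both comparisons share the single control library, and ranks from lists of different length cannot show whether binding changed.

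Across lists 12 members differed by over 20 percentile points. The share of all protein-coding genes that did so was not counted, so these members are not set apart from other genes. COX7B, a small subunit of complex IV encoded on chromosome X, was the 1 member that stood at least 20 points lower in control than in both guides, at 28.2 in control, 65.9 in guide 1 and 71.0 in guide 2, on peaks that overlapped. Lowest in guide 1 were NDUFA10 at 55.8, 25.8 and 48.6, NDUFB7 at 48.4, 24.2 and 33.7, NDUFAB1, the mitochondrial acyl carrier protein, at 69.2, 45.4 and 54.1, and NDUFA9 at 68.4, 44.0 and 73.6, with COX5A, SDHB, NDUFS1, COX8A and ATP5PF, given above. NDUFA3 (52.2, 57.6 and 37.0) was lowest in guide 2, and NDUFB3, without a peak in guide 1, completed the 12. With 1 library per group no difference at a single gene could be tested.

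Respiratory chain peaks were of middling to high rank in their lists. In control their median percentile was 81.6 (order-statistic interval 75.3 to 85.0) and 17 of 73 (23.3%) were at or above percentile 90, a share near the 18.2% of all genes marked in control. The shares were 19.7% against 17.5% in guide 1 and 26.7% against 18.8% in guide 2, and no member was at or above percentile 99 in any list. The medians were 74.6 (70.2 to 79.5) in guide 1 and 74.6 (69.8 to 82.8) in guide 2, where all marked genes had 67.4 and 69.8. Cytosolic ribosomal protein genes, a housekeeping set, were marked at 80 of 81 in every list with control, guide 1 and guide 2 medians of 95.6, 94.2 and 95.6. Of those 80 control peaks, 58 were at or above percentile 90, led in control by RPS6 (99.6, 99.6 and 99.7), RPL12 (99.5, 99.3 and 99.3) and RPS20 (99.5, 99.3 and 99.4). Mitochondrial ribosomal protein genes were marked at 73 of 77 in control, 70 in guide 1 and 71 in guide 2, with medians of 75.3, 72.6 and 78.3, led in control by MRPS18B (99, 99.1 and 99.2, closer to PPP1R10), MRPL20 (98.3, 97.8 and 98.4) and MRPL15 (98.2, 97.4 and 97). MRPL28 and MRPL11 were marked in control alone, at 53.4 and 39.6, and MRPL19 in control (28.2) and guide 2 (28.9). These lists are set side by side as a description, and no difference between them was tested.

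Genes that build and regulate the chain were mostly marked too. Assembly factors, which insert cofactors and join subunits, were marked at 44 of 45 in control, 44 in guide 1 and 45 in guide 2, with medians of 79.2, 75.5 and 78.3. The complex I assembly genes NDUFAF3 (99.6, 99.3 and 99.6, closer to DALRD3) and NDUFAF6 (98.9, 99 and 98.9) and the complex V assembly gene TMEM70 (97, 94.2 and 94.8) ranked highest in control; in both guides TIMMDC1 (95.4, 96.5 and 95.6), UQCC1 (96, 95.6 and 95) and COA6 (94.6, 94.9 and 97.2) stood above TMEM70. ATPAF2 lacked a peak in guide 1 (7.81 in control, 34.7 in guide 2). NDUFAF8 had only weak peaks, in the guides (3 and 0.811). Of 15 genes for regulators of respiratory genes or of mitochondrial transcription, 12 were marked in control, 11 in guide 1 and 12 in guide 2. TFAM, the packaging and transcription factor of mitochondrial DNA, led at 98, 97.3 and 98.1, followed in control by GABPB1 (87.7, 84.5 and 87.9), a subunit of GABP, and TFB1M (87.4, 85.6 and 82.8), which methylates mitochondrial ribosomal RNA, and NRF1 stood at 77.6, 67.4 and 82.2. PPARGC1A and PPARGC1B, coactivators of mitochondrial biogenesis, and YY1 were unmarked in every list, and POLRMT, the mitochondrial RNA polymerase, was marked in control (17.7) and guide 2 (26.5).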

How the data were processed

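Each list holds the peaks of 1 anti-IRF3 library. The submitters' processing notes name Bowtie2 2.2.2.6, MACS2 2.1.0 and hg38 but no settings; whether an input was used is not stated. The authors deposited positions and a score per peak on no stated scale, so a score served only to rank peaks within its list. Groups came from the guide label. Start positions were read as BED and shifted to 1-based; each list has a peak that starts at 1 on an unlocalized chromosome 9 sequence and none at 0, so printed peak starts may be 1 too high.

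Gene spans came from the RefSeq table of GRCh38.p14 (coordinates of hg38), and strand and starts from its promoter table. Python 3.11.15, pandas 2.3.3 and SciPy 1.17.1 were used, and the marking functions were checked on simulated data. Named were the 4 highest members per complex, members unmarked or marked in some lists, those with a peak closer to another gene or shared, those over 20 points apart, and leaders of the other lists; further members were added for their role. Members, lists and rules were chosen with earlier results of these data known. Alternatives varied the window, the peaks used, the members and the overlap. One result that the naming rule selects is not reported here.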

Additional observations from a re-analysis of the deposited data

How the results depend on the processing

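Of the counts and medians recomputed under other settings, 101 kept within 1.5 times the count, or within the interval of the median, and 3 did not. With a window of 10 kb, 4 members were marked in no list in place of 13, and 63 in place of 34 shared the strongest control peak with another gene. With the gene start alone, which only 71 members have listed, 8 were marked in no list. These follow from the wider window and from the fewer genes. With only the higher-scoring 50% of each list, 69 members were marked in control, 61 in guide 1, 66 in guide 2 and 58 in all. A reciprocal overlap of 50% left 64, 69 and 67 overlapping pairs of peaks. Depth is unknown, so a peak missing from 1 list cannot be told from one below its threshold. No paired analysis was possible because each group held 1 library.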
